A study of Mus musculus with 8 samples.

Results

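The genes described here encode the working parts of motile cilia and the factors that switch those parts on. The set is a list of 40 mouse genes, chosen by name from their known cilia function with earlier results of these arrays in view. Of the 40, 39 were measured under a single gene symbol, out of 18193 genes in all. Sntn was not among the usable rows and is named only. The level of each gene and its correlation over the 8 arrays were known when the list was made, so the levels, group differences and correlations of the members are a description, and their p-values support nothing.

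The study measured RNA from gonadal white fat of mice at 10 weeks of age on Affymetrix arrays. The 4 control arrays came from wild type mice on a Swiss background (controls 1, 2, 3 and 4). The 4 knockout arrays came from aP2-Pex5 -/- mice (knockouts 6, 8, 9 and 10), and no treatment was given to either group. Pex5 encodes the receptor that carries enzymes into peroxisomes, and its loss leaves the organelle without most of its content. The aP2 promoter drives the deletion in fat cells, but it is also active in some other cells such as macrophages, and other cells of the fat pad keep Pex5. The labels do not say whether each array is a separate animal, so the spread between arrays may be technical in part. The sex of the mice is not labelled either. The Y-linked genes Eif2s3y and Kdm5d read between 8.13 and 10.54 on the log2 scale on all 8 arrays.

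Motile cilia are beating hairs on the cell surface, built on a shaft of paired microtubules called the axoneme. Outer and inner dynein arms slide the microtubules past each other, and radial spokes, nexin links and a central pair of microtubules shape the beat. In multiciliated cells the transcription factor Foxj1, with factors of the Rfx family, turns on the genes for these parts. Such cells line the airways, the brain ventricles, the oviduct and the efferent ducts that leave the testis, and fat cells do not carry motile cilia. Sperm tails share most of the axoneme.

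Values are deposited log2 intensities, so a step of 1 is a doubling. Array medians lay between 6.44 and 6.52. The adipocyte hormone gene Adipoq read 14.43 to 14.63 over the 8 arrays, and the mean of 8 measured adipocyte markers was 13.11 to 13.45 in controls and 13.26 to 13.45 in knockouts, so the labelled tissue carried its markers on every array. Pex5 itself read 9.38 ± 0.24 in controls and 9.36 ± 0.10 in knockouts (SD, n = 4 each). Its probes are not known to lie in the deleted part and so check nothing. In limma, 0 of 18193 genes (0%) passed a Benjamini-Hochberg adjusted p of 0.05 between the groups, 466 had an unadjusted p below 0.05, and an unmoderated test of each gene passed 0, with 511 at an unadjusted p below 0.05.

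The cilia genes varied far more from array to array than most genes did, and they varied together. The median SD over the 8 arrays was 0.68 among the 39 members and 0.15 among all genes. An SD above 0.5 was found in 26 members, against 6.12% of all genes. Control 3 was the lowest of the 8 arrays for 33 members, against 16.6% of all genes, and for 32 of them control 2 came next, against 7.03%. Knockout 8 was the highest array for 24 members. In whole tissue, fewer cells of a type and less RNA per cell cannot be told apart.

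**Figure D1:**
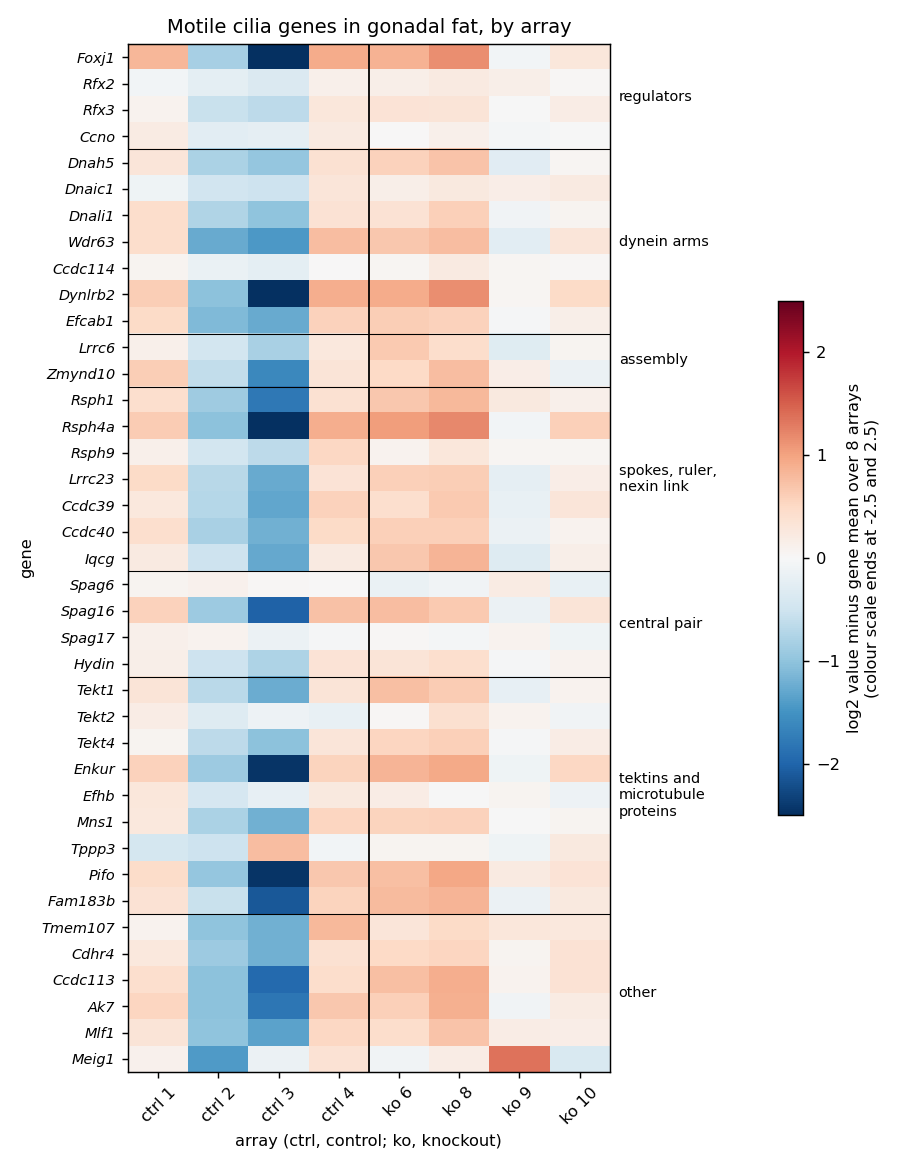
Each row is a member grouped by role, each column an array, and colour gives the log2 value minus the gene's mean over the 8 arrays, with values beyond -2.5 and 2.5 drawn at the end colours. Most rows are blue in control 3 and, less so, in control 2, and red or pale elsewhere; Tppp3, Meig1, Spag6 and Spag17 break the pattern.

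The mean of the 10 members of largest SD (Rsph4a, Foxj1, Dynlrb2, Enkur, Pifo, Spag16, Ccdc113, Fam183b, Ak7 and Wdr63) is called the cilia profile below. It was 7.88, 6.38, 4.95 and 8.04 in controls 1, 2, 3 and 4, and 8.13, 8.28, 7.28 and 7.69 in knockouts 6, 8, 9 and 10. The groups overlapped, since controls 1 and 4 stood above knockouts 9 and 10. From the lowest, the arrays ran control 3, control 2, knockout 9, knockout 10, control 1, control 4, knockout 6 and knockout 8. All 10 genes kept that order up to control 1, and 7 of 10 placed knockout 6 above control 4. The upper 4 arrays lay within 0.41 of each other, while controls 3 and 2 were 1.43 apart.

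Each of the 10 followed the mean of the other 9 with a Pearson r between 0.94 and 0.997 over 8 arrays. Among the 29 measured members outside the profile, 19 (65.5%) had r above 0.9 with it, against 3.95% of all genes. Without controls 2 and 3, the 2 arrays farthest below, 12 of these 29 still had r above 0.9 over the remaining 6 arrays, against 1.69% of all genes. The 12 were counted by that r itself, so the count only describes the 6 arrays. These correlations share the arrays, the tissue pieces and the normalisation, and carry no p.

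Between the groups, 37 of 39 members were higher in knockouts than in controls, against 46.7% of all genes, and the median difference was 0.61 on the log2 scale, against -0.01 for all genes. The differences ran from -0.11 to 1.39. No member (0 of 39) passed the adjusted threshold in limma, each with an adjusted p of 0.999, and 0 of 39 had groups that did not overlap, against 0.682% of all genes that lay wholly higher and 1.02% wholly lower. An unadjusted p below 0.05 was found for 2 members with higher knockout means, Rfx2 and Dnaic1, against 1.18% of all genes in that direction, and for 0 members with lower means, against 1.38%. Without control 3, 35 of 39 were higher with a median of 0.29, against 48.5% of all genes. Without controls 2 and 3, 15 of 39 were higher and 24 lower, with a median of -0.05, against 46.3% of all genes higher, and the 95% intervals of all 39 held 0. On these 6 arrays 0 members had an unadjusted p below 0.05, against 3.15% of all genes. Leaving out the lowest controls lowers the difference by construction. That split was chosen after the values were seen.

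**Figure D2:**
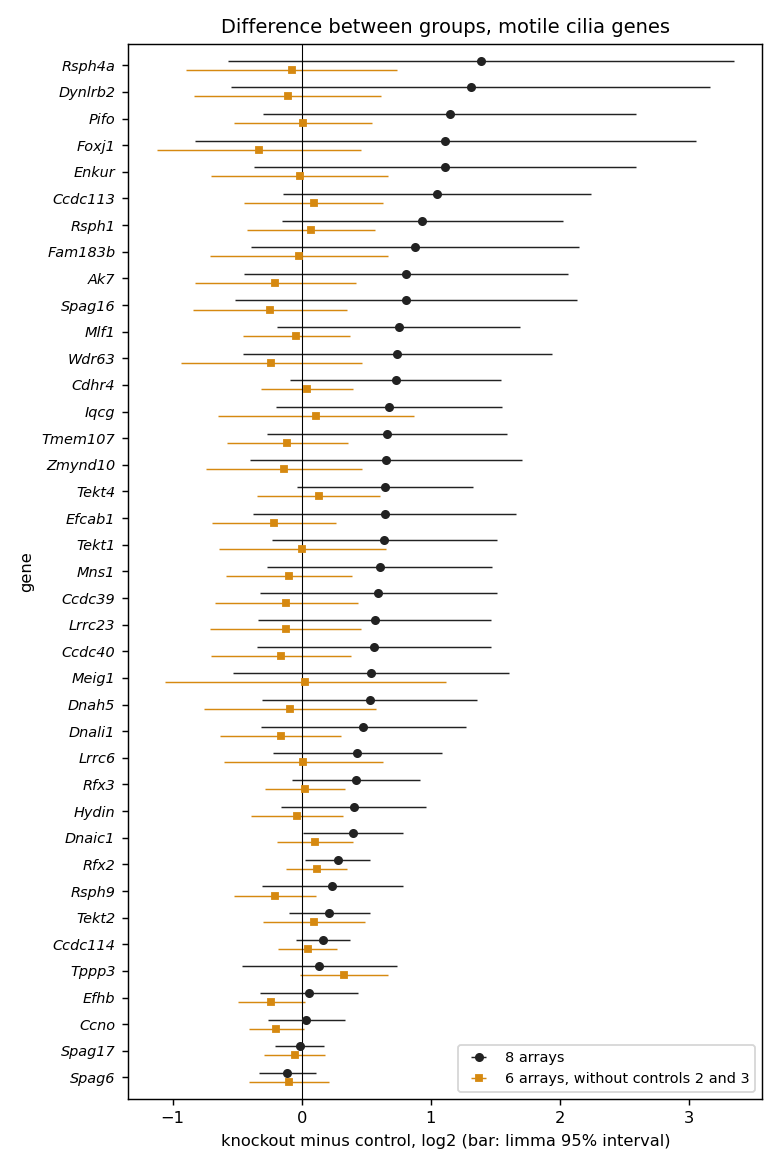
For each member, the knockout minus control difference in log2 units with its limma 95% interval, over 8 arrays (black circles) and over 6 arrays without controls 2 and 3 (orange squares). The black circles reach 1.39 for Rsph4a, and the orange squares lie between -0.33 and 0.33 with every interval over 0.

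The arrays form 2 sets by the lower quartile of their values, the former holding controls 1 and 2 beside knockouts 6 and 8 and the latter the other 4 arrays. Each set holds 1 of the low controls. The median member difference was 0.84 within the former set and 0.38 within the latter, with 37 and 35 of 39 members higher, and both are values with no test.

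Among the 4 regulators, all were higher in knockouts, with a median difference of 0.35, and 2 were higher without controls 2 and 3. Foxj1, the master transcription factor of motile cilia, read 8.92, 7.25, 4.91 and 9.02 in controls 1 to 4 in that order and 8.95, 9.24, 8.01 and 8.37 in knockouts 6, 8, 9 and 10. Control 3 was lowest, at a value that 26.4% of its probe sets lay under, control 2 came next, and controls 1 and 4 lay within the knockout range. The means were 7.53 ± 1.92 in controls and 8.64 ± 0.56 in knockouts (SD, n = 4 each), which differ by 1.11 (95% interval -0.83 to 3.06). It was -0.33 without controls 2 and 3.

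The Rfx factors bind the promoters of cilia genes. Rfx2 read 7.41, 7.23, 7.13 and 7.60 in the controls and 7.63, 7.71, 7.63 and 7.52 in the knockouts. Its control range reached into the knockout range only through control 4. The means were 7.34 ± 0.21 and 7.62 ± 0.08 (SD, n = 4 each), a difference of 0.28 (95% interval 0.03 to 0.53), which was 0.12 without controls 2 and 3. With the mean of all Rfx2 probe sets the difference was 0.078. Rfx3 differed by 0.42 and followed the profile with r = 0.95. Ccno, a cyclin-like protein needed to multiply basal bodies, differed by 0.03.

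**Figure D3:**
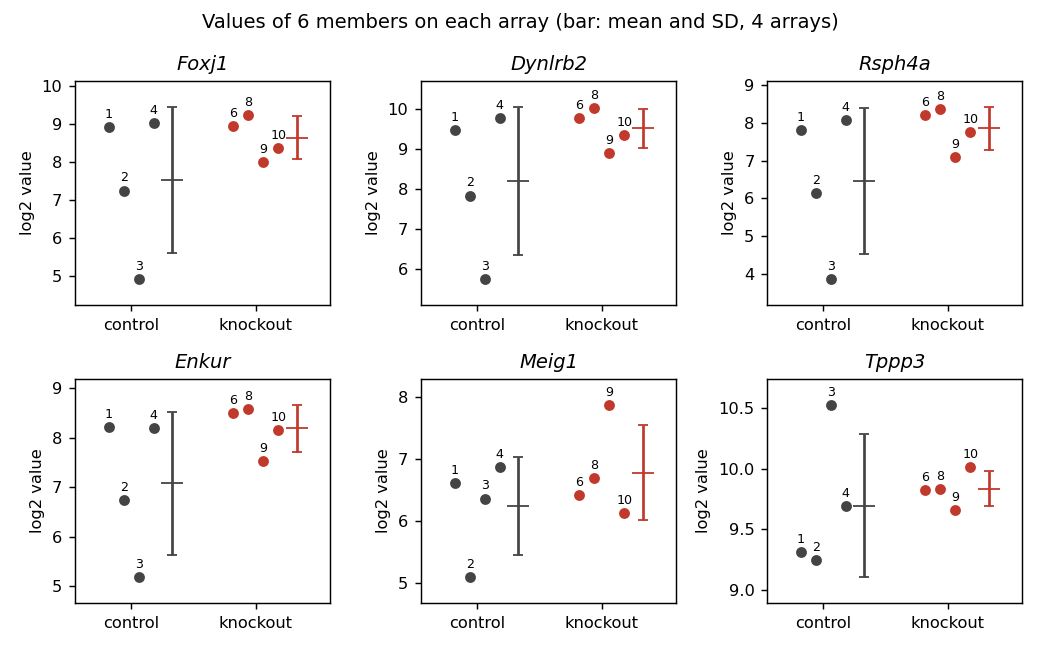
Log2 values of 6 members on each array, with array numbers beside the points and the mean and SD of 4 arrays as a bar. In Foxj1, Dynlrb2, Rsph4a and Enkur controls 3 and 2 lie below all other arrays, in Meig1 knockout 9 is highest at 7.87, and in Tppp3 control 3 is highest at 10.53.

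The 7 genes of the dynein arms and their docking sites were all higher in knockouts, with a median difference of 0.53, and 2 of 7 were higher without controls 2 and 3. Dynlrb2, a light chain of dynein, read 9.48, 7.84, 5.74 and 9.77 in the controls and 9.78, 10.03, 8.91 and 9.35 in the knockouts. Only controls 2 and 3 lay outside the knockout range. The means were 8.21 ± 1.85 and 9.52 ± 0.49 (SD, n = 4 each), a difference of 1.31 (95% interval -0.55 to 3.17), and control 3 stood 13.3-fold below the median of the other 7 arrays.

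Wdr63, an intermediate chain of the inner arm, read 6.42, 4.72, 4.54 and 6.75 in the controls and 6.65, 6.76, 5.71 and 6.28 in the knockouts. Here controls 2 and 3 were nearly alike and both below every other array. Dnaic1, an intermediate chain of the outer arm, read 6.25, 5.89, 5.84 and 6.65 in the controls and 6.51, 6.61, 6.52 and 6.58 in the knockouts. Its knockouts were tightly grouped, at 6.56 ± 0.05 against 6.16 ± 0.38 (SD, n = 4 each), and control 4 stood above them all. Its difference was 0.40 (95% interval 0.01 to 0.79), 0.10 without controls 2 and 3, and 0.29 with the mean of its probe sets. The outer arm heavy chain gene Dnah5 differed by 0.53, the inner arm light chain gene Dnali1 by 0.48, and Efcab1 by 0.64, all with r above 0.9. Ccdc114, part of the docking complex, differed by 0.17.

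The assembly factors Lrrc6 and Zmynd10, which prepare dynein arms in the cytoplasm, differed by 0.43 and 0.65, and both had r above 0.9 with the profile.

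The 7 genes of the radial spokes, the axonemal ruler and the nexin link all had r above 0.9 with the profile. Rsph4a, a radial spoke head protein, was the most variable member, with an SD of 1.52 over the 8 arrays. It read 7.80, 6.14, 3.86 and 8.07 in the controls and 8.21, 8.36, 7.10 and 7.75 in the knockouts. Control 3 was lowest, at a value that only 9.6% of its probe sets lay under, where a fold is not well measured. The means were 6.47 ± 1.94 and 7.86 ± 0.57 (SD, n = 4 each), the largest member difference at 1.39 (95% interval -0.57 to 3.35), and -0.077 without controls 2 and 3.

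The spoke head gene Rsph1 differed by 0.94 and Rsph9 by 0.24. Ccdc39 and Ccdc40, the ruler that sets the repeat along the axoneme, differed by 0.59 and 0.56, Lrrc23 by 0.57 and Iqcg, of the nexin link, by 0.68. All 7 were higher in knockouts, with a median of 0.59, and 2 of 7 were higher once controls 2 and 3 were left out.

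The central pair genes divided. Spag16 read 6.86, 5.38, 4.27 and 7.02 in the controls and 7.06, 6.95, 6.15 and 6.62 in the knockouts, again with control 3 and then control 2 lowest. Its difference was 0.81, -0.24 without those 2 controls, and 0.30 with the mean of its probe sets. Hydin, a large central pair protein whose loss causes fluid on the brain, differed by 0.40 with r = 0.98. Spag6 and Spag17 stayed between 3.05 and 3.98 on all 8 arrays, at the dim end of the scale, and differed by -0.11 and -0.01. Spag6l, a close relative of Spag6 that is not on the list, read 6.09 to 7.42 with r = 0.96; how the probes divide between the pair of genes was not tested.

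The 9 tektins and other microtubule proteins were all higher in knockouts, with a median of 0.64, and 5 of 9 were higher without controls 2 and 3. Enkur read 8.22, 6.73, 5.19 and 8.21 in the controls and 8.50, 8.59, 7.54 and 8.16 in the knockouts. Pifo, which acts at the base of the cilium, read 7.83, 6.40, 4.93 and 8.05 in the controls and 8.13, 8.35, 7.60 and 7.71 in the knockouts. Fam183b read 8.72, 7.81, 6.25 and 8.92 in the controls and 9.16, 9.22, 8.22 and 8.60 in the knockouts. In these 3 genes, controls 2 and 3 lay below every knockout and controls 1 and 4 lay inside the knockout range. Their differences were 1.11, 1.15 and 0.88 with all arrays, and -0.016, 0.012 and -0.020 without controls 2 and 3.

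Tekt1, Tekt4 and Mns1 differed by 0.64, 0.65 and 0.61 with r of 0.97, 0.97 and 0.98, while Tekt2 differed by 0.21 with r = 0.53 and Efhb by 0.06 with r = 0.67. Tppp3, a tubulin-binding protein, read 9.32, 9.25, 10.53 and 9.70 in the controls and 9.83, 9.83, 9.66 and 10.02 in the knockouts. Its highest value was in control 3, the array where most members were lowest. Its r with the profile was -0.44 over 8 arrays and 0.12 without controls 2 and 3, and its rank correlation over 8 arrays was 0.05. In control 2, Tppp3 was lowest and the profile next to lowest, so of those 2 arrays only control 3 pulled r down.

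Of the remaining members, 6 of 6 measured were higher in knockouts, with a median of 0.74. Ccdc113 read 5.82, 4.38, 3.45 and 5.84 in the controls and 6.15, 6.30, 5.50 and 5.76 in the knockouts. Only 4.16% of the probe sets of control 3 lay under its value there, where a fold is not well measured. The adenylate kinase gene Ak7 read 8.68, 7.10, 6.31 and 8.80 in the controls and 8.73, 9.02, 8.05 and 8.34 in the knockouts. Tmem107, a protein of the ciliary transition zone, read 9.68, 8.59, 8.39 and 10.41 in the controls and 9.91, 10.07, 9.88 and 9.86 in the knockouts. Controls 2 and 3 were the lowest arrays for all 3 genes, and the differences were 1.05, 0.81 and 0.66. Without those controls they were 0.09, -0.20 and -0.11.

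Cdhr4 and Mlf1 differed by 0.73 and 0.75, with r = 0.97 each. Meig1, known for its part in building sperm, read 6.62, 5.10, 6.36 and 6.87 in the controls and 6.41, 6.69, 7.87 and 6.13 in the knockouts. Its highest array was knockout 9, whose cilia profile stood above that of controls 2 and 3 only, and its r with the profile was 0.31 over 8 arrays and -0.60 without controls 2 and 3.

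Other probe sets of the members did not always follow. Of the members, 12 had several probe sets, and 4 of the 19 not used here had r above 0.9. Of the 19, 10 had a mean below 5, and none of those 10 reached that r.

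Promoters are shown because most members varied together and because Rfx factors, among them Rfx2 and Rfx3, bind a sequence known as the X box. The windows searched were RefSeq promoters of build GRCm38.p6, from 250 bases before to 50 after an annotated start of a gene, on both strands. They were found for 33 of the 40 listed genes. The letters GTTGCC, which are one arm of the X box, stood in 21 of these 33 (63.6%), against 14.1% of 27025 genes with a promoter in the table. The share was 14 of 53 (26.4%) in other axoneme genes, 14 of 28 (50%) in intraflagellar transport and BBSome genes, 0 of 5 in adipocyte markers and 0 of 8 in epithelial markers. The 6 windows below, all upstream of the start used for their promoter, are from profile genes with such a match. They are given in the gene's own direction, with GTTGCC or its reverse complement GGCAAC in capitals. They lie at chr8:116504937-116504996 on the plus strand for Dynlrb2, chr2:21205367-21205426 on the minus strand for Enkur, and chr11:58801961-58802003 on the minus strand for Fam183b. Those of Pifo, Spag16 and Ccdc113 lie at chr3:106001498-106001536 on the minus strand, chr1:69826832-69826891 on the plus strand and chr8:95534067-95534099 on the plus strand.
Dynlrb2: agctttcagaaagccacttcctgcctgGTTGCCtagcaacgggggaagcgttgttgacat
Enkur: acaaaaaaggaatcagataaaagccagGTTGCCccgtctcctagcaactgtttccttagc
Fam183b: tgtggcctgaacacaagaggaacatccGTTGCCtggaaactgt
Pifo: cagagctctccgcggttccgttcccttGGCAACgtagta
Spag16: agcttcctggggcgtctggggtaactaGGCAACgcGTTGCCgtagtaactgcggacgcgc
Ccdc113: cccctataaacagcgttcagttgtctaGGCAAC

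The match starts 51 bases before the start used for the promoter in Dynlrb2, 34 in Enkur, 12 in Pifo and 6 in Ccdc113. Fam183b holds 2 matches, at 16 and 67, of which the nearer is shown, and Spag16 holds 2, at 111 and 103. The start used can lie inside the full span of the gene. The windows shown for Pifo, Fam183b and Ccdc113 lie within that span, and the window of Spag16 crosses its edge. The arm with an extension, and the full X box with both arms in a longer and a shorter spacing, were each found in 1 of 33 members, against 0.633%, 0.529% and 0.311% of all genes. The full box of longer spacing was in Pifo and that of shorter spacing in Fam183b. The arm with an extension was in Sntn, which was not measured. Of the 32 measured members with a promoter, 20 (62.5%) had the arm and 0 had it with the extension. These forms can overlap the arm. The forkhead letters TGTTTAC were found in 3 of 33 members and 4.05% of all genes, and TGTTTGT in 0 and 7.60%. A comparison string 1 base away from the arm, TTTGCC, stood in 8 of 33 members (24.2%) and 15.8% of all genes. The profile genes Ak7 and Wdr63 had a promoter without the arm. Of members searched with r at most 0.9, Spag6, Tekt2, Ccno and Rfx2 had the arm, and Dnaic1, Ccdc114, Spag17 and Meig1 lacked it. Whether the arm goes with the array pattern was not tested. A match describes letters in a window and shows no binding.

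Most genes of the same machinery that are not on the list had the same pattern over the arrays. Of 61 measured axoneme genes outside the list, 57 were higher in knockouts, against 46.7% of all genes, with a median of 0.37. In limma, 3 had an unadjusted p below 0.05 with higher knockout means, against 1.18% of all genes in that direction. With lower means there were 0, against 1.38%, and none of the 61 passed the adjusted threshold. Of the 61, 36 (59.0%) had r above 0.9, and control 3 was lowest for 40. Over the 6 arrays without controls 2 and 3, 21 of 61 had r above 0.9, against 1.69% of all genes. The median was 0.23 without control 3, and -0.033 without controls 2 and 3, when 23 of 61 were higher. Cfap52 differed by 1.15, Capsl by 1.06, the dynein heavy chain gene Dnah12 by 0.94 and Cfap65 by 0.69. Of 6 assembly factors outside the list, 5 were higher, with a median of 0.18 (0.11 without control 3). Of these 6, 2 had r above 0.9 over 8 arrays and 0 over the 6 arrays.

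Genes that both motile and immotile cilia use varied less. Of 33 genes of intraflagellar transport and the BBSome, which carry cargo along the shaft of any cilium, 27 were higher in knockouts with a median of 0.13, which was 0.085 without control 3. Their median SD was 0.19, and 8 (24.2%) had r above 0.9 over 8 arrays, but 0 over the 6 arrays without controls 2 and 3. Ttc26 differed by 0.40, Dync2h1 by 0.34, Ift81 by 0.32 and Ift74 by 0.26. Of 17 transition zone genes, 11 were higher with a median of 0.069, or 0.022 without control 3. Of these 17, 4 had r above 0.9 over 8 arrays and 1 over the 6 arrays.

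**Figure D4:**
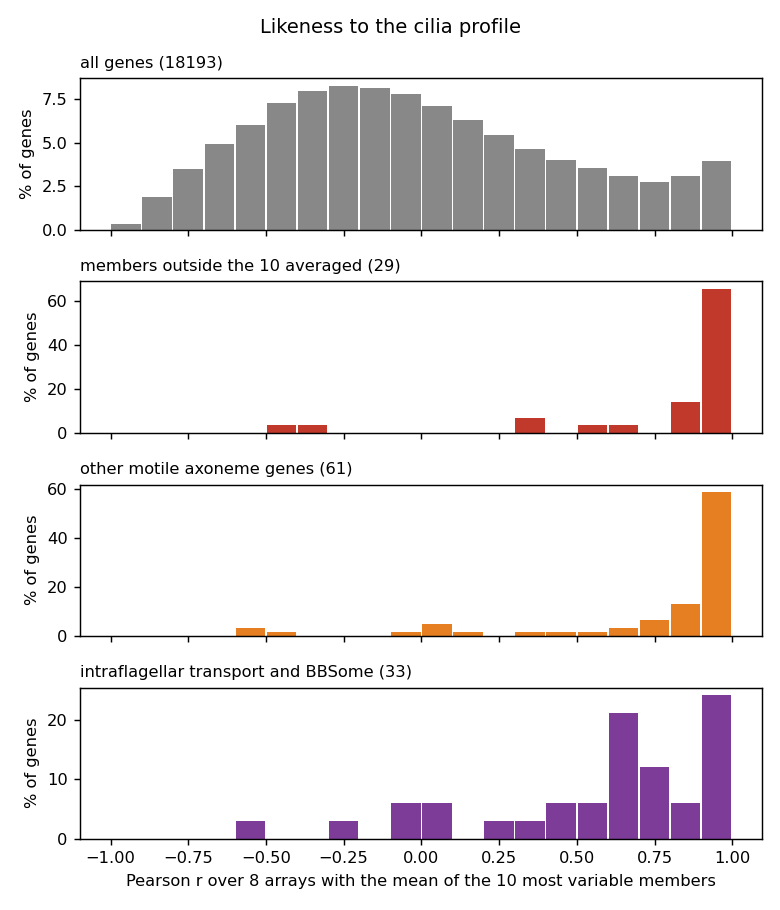
Share of genes, in percent, by Pearson r over 8 arrays with the cilia profile, in 4 panels with separate vertical scales. In the panels of 29 members outside the 10 averaged and of 61 other axoneme genes the bar above 0.9 holds 65.5% and 59.0%, in intraflagellar transport and BBSome genes 24.2%, and in all genes 3.95%.

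Of 11 regulators of multiciliated cells outside the list, 8 were higher with a median of 0.08, and 1 had r above 0.9. That was Myb, a transcription factor of early multiciliated cells, and it read 8.48, 6.73, 4.54 and 8.31 in the controls and 8.35, 8.64, 7.61 and 8.05 in the knockouts. As with Foxj1, controls 3 and 2 were below every knockout. Myb differed by 1.15, by 0.33 without control 3 and by -0.23 without controls 2 and 3.

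Markers of other cells moved with the members on some lists and not on others, and their part in the result was not tested. Of 10 epithelial markers, 9 were higher in knockouts with a median of 0.63, 7 had r above 0.9, and their mean ran from 6.37 to 8.71 in controls and 7.90 to 8.74 in knockouts. Cdh1, the adhesion protein E-cadherin, read 8.98, 6.91, 4.23 and 8.37 in the controls and 8.36, 8.80, 7.83 and 8.58 in the knockouts, with control 3 and then control 2 lowest. On the 6 arrays left without controls 2 and 3, 1 of 10 epithelial markers was higher, with a median of -0.27, and 2 had r above 0.9. Without control 3 alone the median was 0.22 with 8 of 10 higher.

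Of 10 genes listed for oviduct and uterus, 7 were higher with a median of 0.56, and 6 had r above 0.9. Their mean was 6.28 to 7.71 in controls and 7.53 to 7.86 in knockouts. Greb1, an estrogen-responsive gene, differed by 1.76, and the transcription factor genes Pax8 and Emx2 differed by 1.11 and 0.72. Muc16 differed by -0.63 and ran the other way (r = -0.81). Without control 3, 8 of 10 were higher with a median of 0.21, and Greb1, Pax8 and Emx2 differed by 0.75, 0.32 and 0.10. With controls 2 and 3 both left out, 5 of 10 were higher with a median of 0.0032, and 1 had r above 0.9 over the 6 arrays. All 8 arrays carried Y-linked transcripts, while Xist, which is made from an inactive X chromosome, read 8.27 in control 1 and 5.55 to 6.20 on the others. Of 9 ovary markers 5 were higher with a median of 0.05, and 0 had r above 0.9.

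Markers of sperm cells, mesothelium, epididymis and seminal vesicle had other array patterns, with 0 genes of r above 0.9 in each list. Of 14 spermatid genes 2 were higher, with a median of -0.17, but the direction turned on 1 array: without control 3, 13 of 14 were higher with a median of 0.22, and without controls 2 and 3, 9 of 14 with a median of 0.058. Their mean was 5.18 to 7.13 in controls and 5.0 to 7.52 in knockouts, highest in knockout 9 and control 3, while the profile was lowest in control 3 and lower in knockout 9 than in any other knockout. Prm1, a protamine that packs sperm DNA, read 10.12 in control 3 and 10.38 in knockout 9. Of 8 mesothelial genes 1 was higher with a median of -0.47, which was -0.16 without control 3 and -0.076 without controls 2 and 3. Their mean was 8.45 to 9.54 in controls and 7.30 to 9.33 in knockouts, highest in control 3.

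Of 10 epididymis genes 6 were higher with a median of 0.15, and their mean, 4.47 to 5.46 in controls and 4.39 to 7.05 in knockouts, was highest in knockout 8. Lcn8, an epididymal lipocalin, read 11.02 there and at most 4.75 on the other arrays. Of 6 seminal vesicle genes 0 were higher, with a median of -0.35, and their mean, 3.90 to 6.80 in controls and 3.94 to 5.53 in knockouts, was highest in control 3. That direction too turned on control 3, without which 5 of 6 were higher with a median of 0.29. Whether any of these tissues bears on the cilia values was not tested.

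**Figure D5:**
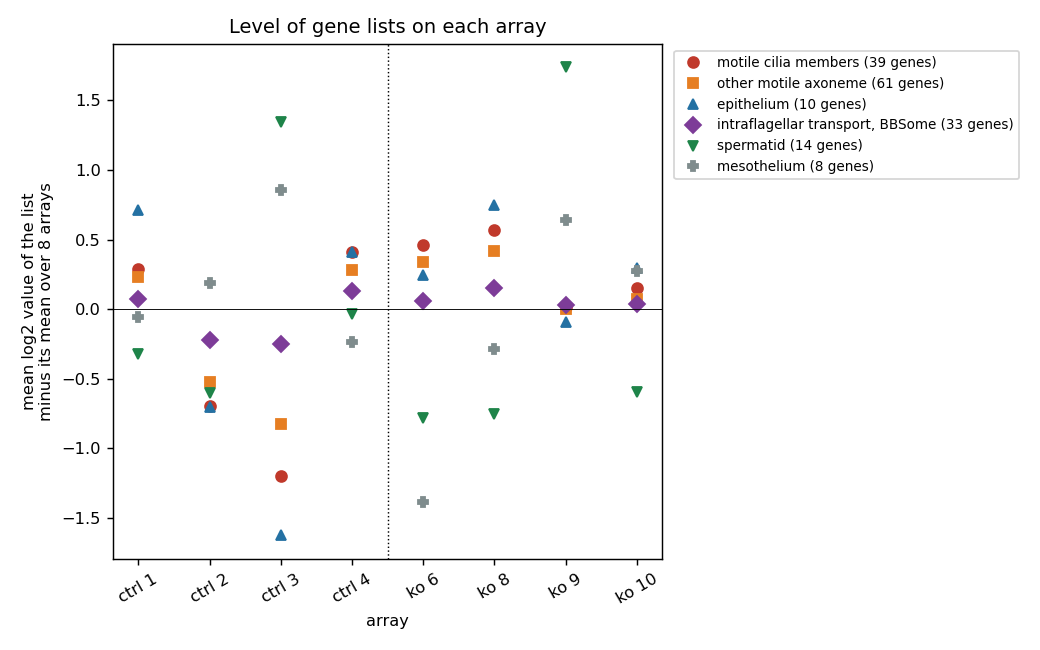
Mean log2 value of 6 gene lists on each array, minus the list's mean over the 8 arrays. The cilia members, other axoneme genes and epithelial markers are lowest in control 3 and next in control 2, while spermatid markers are highest in knockout 9 and control 3.

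Outside the list, the 8 genes with a mean above 6 and the highest r with the profile were B4galnt2, Gipc2, Hoatz, Capsl, Fam47e, Efcab10, Cfap54 and Ppp1r36, each with r of at least 0.997 over 8 arrays. Their differences ran from 0.77 for Cfap54 to 1.29 for Hoatz. All 8 differences were, without controls 2 and 3, below 0, from -0.20 for Fam47e to -0.03 for Capsl. B4galnt2, a glycosyltransferase, read 8.46, 6.96, 5.46 and 8.62 in the controls and 8.66, 8.93, 7.76 and 8.27 in the knockouts, the same order of arrays as the profile.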

How the data were processed

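Expression in 8 gonadal fat samples, 4 a group, was measured on Affymetrix arrays. The authors deposited log2 values normalised with RMA, per the submitters' processing notes, for 45101 probe sets. RMA equalises array distributions and compresses dim values. With 64 control probe sets removed, 34945 others had 1 gene symbol in the platform annotation of 2016, 932 several and 9160 none. Each gene was read from the probe set of highest mean, giving 18193 genes, with no filter on dim genes. Groups were compared in limma 3.58.1 (R 4.3.3, lmFit and eBayes, Benjamini-Hochberg over all genes). The fit was also run on simulated data with independent noise for each gene. That run lacks the array pattern many genes share here, so it does not cover this setting. Intervals are limma 95% intervals. Precision is limited by the number of arrays. The members and lists were chosen with earlier results of these data known. Values on every array are given for Foxj1, the 10 members of largest SD, the 3 of highest mean and members with an unadjusted p below 0.05. For other lists up to 4 genes of largest SD may be named; Meig1, Prm1, Xist, Spag6l and Myb's array values, Lcn8's maximum and Cdh1's values were singled out after their values were seen. Alternatives covered the variance prior, a filter on dim genes, scaling, probe set choice, array weights, array sets, a plain test and leaving out arrays. Promoter windows came from RefSeq, build GRCm38.p6. Figures were drawn with matplotlib 3.10.9.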

Additional observations from a re-analysis of the deposited data

Results flagged for a closer look

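In a group of 4 arrays, a highest or lowest value was singled out where its gap to the nearest other array was above Dixon's 95% critical share of the group's range. Among 78 groups looked at, 2 met it. Chance gives about 1 in 20, so 2 of 78 is no more than chance gives. Both were in knockout 8, the highest array for 24 of 39 members. Ccdc114, of the dynein docking complex, read 7.04 in knockout 8, and 6.84 to 6.85 in the other 3 knockouts. Rsph9, a radial spoke head gene, read 8.10 in knockout 8, and 7.87 to 7.90 in the other 3 knockouts.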

How the results depend on the processing

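The count of genes past an adjusted p of 0.05 was 0 under every alternative run, with 206 to 1566 genes at an unadjusted p below 0.05, and the lowest adjusted p of a member was 0.552, without control 4. Other variance priors, scalings, weights and the array set as a block kept 37 members higher, and averaging all probe sets of a gene gave 38. The median difference, 0.61, ran from 0.29 to 0.86 with each array left out in turn, the lowest without control 3, and the number higher from 35 to 38. Genes above the median level held 12 members, all 12 higher. The median SD was 0.68, 0.66 with array medians subtracted and 0.67 with the mean of probe sets. Spag17 was 0.036 with the mean of probe sets. With each array left out in turn, Ccno ran from -0.049 to 0.12, Efhb from -0.078 to 0.16, Spag17 from -0.064 to 0.027 and Tppp3 from -0.013 to 0.41.

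Without controls 2 and 3, an alternative chosen after seeing the data, the median was -0.053 and 15 members were higher, which the removal of the lowest controls brings by construction. The differences that turned were -0.33 for Foxj1, -0.20 for Ccno, -0.088 for Dnah5, -0.16 for Dnali1, -0.24 for Wdr63, -0.11 for Dynlrb2, -0.21 for Efcab1, -0.13 for Zmynd10, -0.077 for Rsph4a, -0.21 for Rsph9, -0.12 for Lrrc23, -0.12 for Ccdc39, -0.16 for Ccdc40, -0.24 for Spag16, -0.036 for Hydin, -0.016 for Enkur, -0.23 for Efhb, -0.095 for Mns1, -0.020 for Fam183b, -0.11 for Tmem107, -0.20 for Ak7 and -0.041 for Mlf1. No paired analysis was possible because the control and knockout arrays share no replicate numbers.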

Other observations

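Pipox, Dao and Slc27a2, genes of peroxisomal metabolism, had the array pattern of the cilia genes. They were picked after their values were seen, and the share of peroxisomal genes with this pattern was not counted. Among all genes, 3.95% had r above 0.9 with the profile. Pipox, which oxidises pipecolic acid, read 9.13, 7.41, 5.90 and 9.17 in controls 1 to 4 and 9.14, 9.44, 8.28 and 8.60 in knockouts 6, 8, 9 and 10. Its difference was 0.96 with all arrays and -0.28 without controls 2 and 3. Dao, a D-amino acid oxidase, differed by 1.34, and by -0.04 without those controls. Slc27a2, which activates very long chain fatty acids, differed by 1.04, and by -0.49 without them. Their r with the cilia profile was 0.996 for Pipox, 0.99 for Dao and 0.98 for Slc27a2 over 8 arrays, and 0.96, 0.95 and 0.80 over 6. The cause was not tested.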
